A study of Mus musculus with 96 samples.

Results

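The subject is a set of splicing events that the authors annotated as changing the C terminus of a protein, read in single granulocyte-monocyte progenitors (GMP) from mice without ThPOK. The events were chosen by their annotation, alt-C-term in the deposited splicing table, and by having a value in at least 20 of the 96 cells. Of 80855 events in the table, 1105 carried that annotation, and 233 of these, in 148 genes, had values in enough cells. Among the rest, 758 had values in 1 to 19 cells and 114 had none. An event had values in a median of 31 cells, and the most widely measured in 91. The number of cells with a value chose the events, so it is given as a description only. At the edge of the choice, 17 events had exactly 20 cells, such as Stx8, Ube2w and Rbmx, and 18 had exactly 19, such as Cinp, Rab14 and Dnm2. The mean PSI (defined below) over cells had a median of 0.811 over the first and 0.258 over the second.

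All 96 cells were ThPOK-/-, that is, without the transcription factor ThPOK (Zbtb7b), on the C57BL/6 background. Bone marrow was selected with CD117 beads, sorted for GMP by flow cytometry and loaded on a Fluidigm C1, and each cell gave 1 SMARTer and Nextera XT library. The authors' annotation assigned the state IG2 to 31 cells, Multi-Lin-1 to 26 and proNeu-1 to 12, and left 27 cells with no state. Wild-type cells were not analysed here. No animal is named in the labels, and the 96 cells are therefore 1 sample of 1 genotype, cells are not replicates, and no p-value was computed. A number in each cell's label, 078 or 079, with 48 cells each and both in every state, was used to repeat the values.

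A gene can end its protein in more than 1 way. Splicing from 1 donor (the 5′ splice site) to different terminal exons, or a shift of the reading frame after the junction, gives proteins with a common start and different last residues. The tail of a protein often holds its address: a lipid attachment site, a sorting motif of a membrane protein or a nucleolar localization signal. Choice of a last exon is coupled to cleavage and polyadenylation, because each terminal exon has its own poly(A) site. Each event compares an examined junction with a background junction, and its value, percent spliced in (PSI), is the fraction of junction reads, from 0 to 1, that take the examined one. Where an event also stood with its junctions swapped, the PSI values did not always sum to 1 (below). A lower PSI of the examined junction is therefore not always a higher PSI of the background junction. Exon regions are named as in the deposited table, by E, the exon and a subregion, so E5.1-E8.1 joins a region of exon 5 to a region of exon 8.

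The sequences that best show what such an event changes come from 3 genes in which both junctions leave 1 donor and lie in annotated coding transcripts. They are GENCODE vM21 transcripts (build GRCm38), from the first base after the junction to the stop codon, which is in capitals. Npm1 encodes nucleophosmin, a nucleolar histone chaperone, and lies on chromosome 11, minus strand, with the donor at 33156003 and acceptors at 33154060 (E12.2) and 33155220 (E11.1). The long ending keeps 111 coding bases after the junction and the short ending only 6.
Npm1 E12.2 ending: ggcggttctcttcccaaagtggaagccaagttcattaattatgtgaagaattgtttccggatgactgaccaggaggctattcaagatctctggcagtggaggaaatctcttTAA
Npm1 E11.1 ending: gcgcatTGA
Cdc42, a small GTPase, lies on chromosome 4, minus strand, with the donor at 137328713 and acceptors at 137321192 (E8.1) and 137322619 (E7.1). Both endings have 87 coding bases, and their last codons differ. The E8.1 ending is that of the ubiquitous prenylated protein, and the E7.1 ending that of the form best known from brain.
Cdc42 E8.1 ending: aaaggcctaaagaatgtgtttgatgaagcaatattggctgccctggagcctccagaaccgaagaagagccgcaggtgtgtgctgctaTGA
Cdc42 E7.1 ending: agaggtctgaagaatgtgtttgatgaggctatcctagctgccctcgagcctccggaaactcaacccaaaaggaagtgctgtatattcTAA
Lamp2, a lysosomal membrane glycoprotein, lies on chromosome X, minus strand, with the donor at 38424267 and acceptors at 38405571 (E11.1) and 38421851 (E10.1). Each ending has 137 coding bases after the junction and encodes the transmembrane segment and the short cytosolic tail. E11.1 gives LAMP-2A, the form known from chaperone-mediated autophagy, and E10.1 gives LAMP-2B.
Lamp2 E11.1 ending: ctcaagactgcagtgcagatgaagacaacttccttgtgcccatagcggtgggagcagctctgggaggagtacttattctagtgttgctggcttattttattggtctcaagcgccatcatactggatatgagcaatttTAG
Lamp2 E10.1 ending: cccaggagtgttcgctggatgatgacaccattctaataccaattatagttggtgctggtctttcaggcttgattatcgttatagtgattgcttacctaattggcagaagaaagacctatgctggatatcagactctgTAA

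An event with the same annotation need not be an alternative ending. In Sdcbp, which encodes the PDZ adaptor syntenin-1 (chromosome 4, plus strand), the acceptors at 6385026 and 6385029 lie 3 bases apart, and 654 or 651 coding bases follow to a stop codon in common. The 30 bases across each junction are printed with the downstream exon in capitals.
Sdcbp E9.1 junction: gcaccagcacaagggCAGTTGGTAGCAAGA
Sdcbp E9.2 junction: gcaccagcacaagggTTGGTAGCAAGACCA

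The annotation was set against the junctions themselves. The table's coordinates matched GRCm38 GENCODE exon ends at 461 of 466 donors and exon starts at 453 of 466 acceptors, so they were read as mm10. In 153 of the 233 events (65.7%, 94 genes) the junctions shared the donor and led to different acceptors, the arrangement of alternative endings. In the other 80 (34.3%, 60 genes) they shared the acceptor and came from different donors. Some of these donors lie in the same numbered exon, such as E1.4 and E1.3 of Pih1d1. In 45 of those 80 (56.2%) both donors belonged to annotated first exons. Among the donor-sharing events, 58 (37.9%) reached an annotated last exon by both junctions, 76 by 1 and 19 by neither. No stop codon was in common in 75 of the 153 (49%), 15 had one in common, and 63 had no annotated coding transcript for 1 or both junctions. Of the acceptor-sharing events, 36 of 80 (45%) had a stop codon in common and 5 had none. The deposited protein prediction named the C terminus for 126 of 233 events (54.1%) and nonsense-mediated decay for 9. Among the 80 acceptor-sharing events it named both termini for 21 and the C terminus alone for 3. The files do not say what the annotation means where the acceptor is shared, so those events are called by their junctions and not alternative endings.

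Distances between the acceptors of the donor-sharing events ran from 3 to 283397 bases, with a median of 3468. Over 1000 bases separated them in 121 of 153 events, and 5 were tandem acceptors 3 or 4 bases apart. Many events are not independent, because 46 pairs of them (92 events) are the same junctions with examined and background swapped. Of 1668 cell values present in both of a pair, 90.5% summed to 1, and the rest to less.

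Values clustered at the ends of the scale. Of 8525 PSI values, 50.9% were 0 and 36.4% were 1, and 7.0% (597 values) lay between 0.1 and 0.9. Over all 19295 events with values in at least 20 cells these shares were 52.6%, 39.8% and 3.50%. The mean over cells was under 0.1 for 94 events (40.3%) and over 0.9 for 66 (28.3%), and 73 (31.3%) lay between. Over all events with values in at least 20 cells the share between was 11.3%. Donor-sharing events had an intermediate mean in 32% and acceptor-sharing events in 30%. In 34 of the 233 events every value was 0 and in 11 every value was 1, against 4443 and 1976 of all 19295 events. Reads per junction are not given, so an end value can rest on very few reads.

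**Figure D1:**
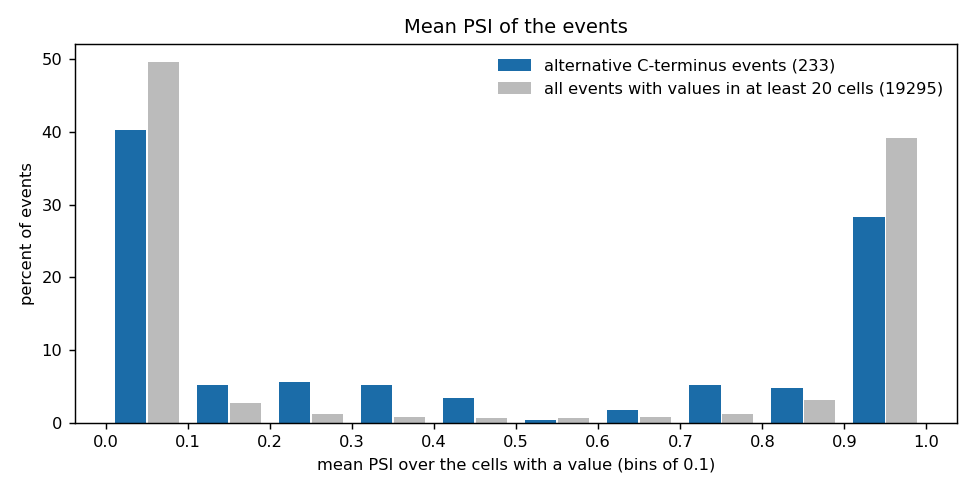
Percent of events (vertical axis) by mean PSI over the cells with a value (horizontal axis, bins of 0.1), for the 233 alternative C-terminus events (blue) and all 19295 events with values in at least 20 cells (grey). Both sets are highest in the end bins, and the blue bars are higher in most bins between.

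Npm1 had both endings in many single cells. Its event for the long ending (E9.2-E12.2) had values in 90 cells, 51 of them (56.7%) between 0.1 and 0.9, the highest such share of any gene. PSI of the long ending had a lowest value of 0.47, a median of 0.819 and a highest of 1 in the 31 IG2 cells, and 0.51, 0.783 and 1 in the 12 proNeu-1 cells. The 24 Multi-Lin-1 cells ran from 0 to 1 with a median of 0.801, and the 23 cells without a state from 0 to 1 with a median of 0.971. IG2 cells averaged 0.809 ± 0.146 (SD over cells, n = 31), Multi-Lin-1 cells 0.703 ± 0.340 (n = 24), proNeu-1 cells 0.772 ± 0.141 (n = 12) and cells without a state 0.835 ± 0.256 (n = 23). The states overlapped, and the difference of IG2 from Multi-Lin-1, 0.11, was smaller than either SD. The swapped event, for the short ending, had means of 0.174, 0.264, 0.203 and 0.141 in the same order, so the short ending was the minor form in every state. A further acceptor, E10.1, had a mean PSI of 0.000283 against E12.2 in the same 90 cells. Npm1 itself was abundant, with a mean log2(TPM + 1) of 11.6 for IG2 cells, 10.7 for Multi-Lin-1 cells, 11.3 for proNeu-1 cells and 10.5 for those without a state. Without the 3 Npm1 events, 498 of the remaining 8255 values (6.03%) were intermediate. Among values from cells with the host gene above a TPM of 1000, the intermediate share was 14.7% with Npm1 and 3.54% without it.

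Cdc42 was nearly uniform. The E8.1 ending had values in 73 cells, 61 of them at 1, and averaged 0.958 ± 0.124 (n = 30) over IG2 cells, 0.991 ± 0.0308 (n = 14) over Multi-Lin-1 cells, 0.946 ± 0.117 (n = 11) over proNeu-1 cells and 0.954 ± 0.195 (n = 18) over those without a state. The E7.1 ending was at or above 0.5 in 1 of 30 IG2 cells (95% Clopper-Pearson interval 0.0844 to 17.2%, which covers counting of cells only) and in no cell of the other groups. Tpm3, a tropomyosin with alternative last exons, showed no use of E15.1: its E15.1 event, against E16.1, was 0 in all 79 cells with a value.

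Lamp2 was split between its endings cell by cell. The E11.1 event had values in 39 cells, of which 19 were at 0, 7 at 1 and 7 between 0.1 and 0.9. In the 19 IG2 cells the lowest, median and highest values were 0, 0 and 1, in the 10 proNeu-1 cells 0, 0.527 and 1, and in 6 cells without a state 0, 0 and 1. Of the 4 Multi-Lin-1 cells 3 were at 0 and the highest was at 0.82. The proNeu-1 cells averaged 0.509 ± 0.483 (n = 10) and the IG2 cells 0.273 ± 0.410 (n = 19), a difference of 0.24, which was 0.25 in cells numbered 078 and 0.19, under 0.2, in those numbered 079. At least 0.5 was reached in 5 of 10 proNeu-1 cells (interval 18.7 to 81.3%) and 6 of 19 IG2 cells (12.6 to 56.6%). The difference was smaller than the SD over cells in either state. A further ending, E12.1, had a mean PSI of 0.000254 against E10.1. The level of Lamp2, as mean log2(TPM + 1), was 5.95 ± 3.27 for IG2 cells, 2.45 ± 3.2 for Multi-Lin-1 cells and 6.97 ± 2.61 for proNeu-1 cells.

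Other donor-sharing events were as divided. Pbdc1 E6.1 had values in 51 cells, and averaged 0.80 ± 0.344 (n = 20) over IG2 cells, 0.867 ± 0.352 (n = 15) over Multi-Lin-1 cells and 0.509 ± 0.434 (n = 8) over proNeu-1 cells. The swapped event, for E7.1, did not mirror this: it averaged 0.143, 0.0667 and 0.119 in the same order, and proNeu-1 minus IG2 was -0.29 for E6.1 and -0.02 for E7.1. The 2 annotated last exons of Pbdc1 give predicted proteins of 137 and 198 residues. Polr1d, a subunit shared by RNA polymerases I and III, had its E3.1 event in 52 cells, and averaged 0.320 over 22 IG2 cells, 0.297 over 9 Multi-Lin-1 cells and 0.483 over 9 proNeu-1 cells. Ubap2l E29.1 had means of 0.422 (n = 15), 0.444 (n = 6) and 0.260 (n = 7) in the same order. Its swapped event, E28.1, did not mirror this: proNeu-1 minus IG2 was -0.16 for E29.1 and -0.16 for E28.1. The Sdcbp acceptor pair was mixed in 16 of 56 cells, and E9.2 averaged 0.375 ± 0.410 (n = 23) over IG2 cells, 0.217 ± 0.315 (n = 13) over Multi-Lin-1 cells and 0.248 ± 0.295 (n = 6) over proNeu-1 cells. Zwint, a kinetochore protein, had 11 of 36 E7.2 values between 0.1 and 0.9, and both of its junctions lie after the stop codon.

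**Figure D2:**
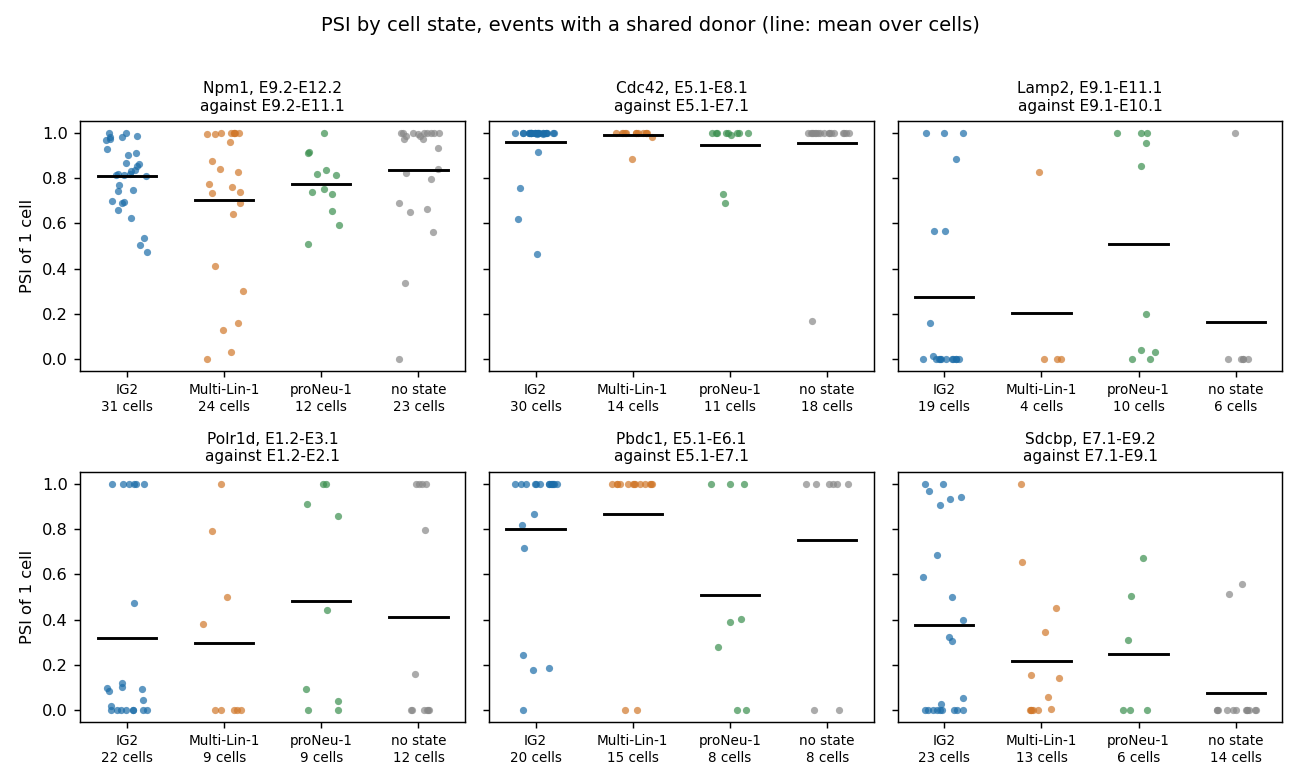
PSI of single cells (points, vertical axis from 0 to 1) by state (horizontal axis, with the number of cells with a value) for 6 donor-sharing events, with the mean over cells as a line. Npm1 values fill the range above 0.4 in IG2 and proNeu-1, Cdc42 values sit near 1, and the Lamp2, Polr1d, Pbdc1 and Sdcbp panels hold points at both ends in IG2.

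The other widely measured events had a mean PSI near 0 or 1. Serf2 E3.3 (91 cells) had a mean PSI of 0.970 ± 0.101, and its lowest state mean was 0.926 in Multi-Lin-1. Ndufb8, a complex I subunit, had a mean of 0.989 in 84 cells for E5.1, the other last exon being E6.1. Gmfg had a mean of 0.00652 (87 cells), Ndufa7 0.000276 (77), Fis1 0.0570 (75), Tmbim6 0.958 (72) and Mpo 0.968 (69), and these 5 share the acceptor. Mpo, the myeloperoxidase gene, was one of 2 members from a list of 24 granule and myeloid genes, and had state means of 0.983 ± 0.0209 (n = 31) in IG2 and 0.989 ± 0.00942 (n = 12) in proNeu-1. The other was Spi1 (listed as Sfpi1), which encodes PU.1: its E4.2 event had 5 of 24 values between 0.1 and 0.9, with means of 0.907 (n = 11) in IG2 and 0.851 (n = 7) in proNeu-1. Of 40 splicing factors, 3 were members. Hnrnpu E16.1 had a mean of 0.0112 (68 cells) and Rbm39 E6.1 0.0147 (58 cells). Rbm25, which shares the acceptor and carries a predicted decay target, was mixed in 18 of 57 cells (31.6%), and averaged 0.338 ± 0.365 (n = 23) over IG2 cells, 0.201 ± 0.334 (n = 11) over Multi-Lin-1 cells and 0.144 ± 0.30 (n = 10) over proNeu-1 cells.

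Differences between states were then taken by size, as at least 0.2 in mean PSI with at least 5 cells with a value in each state. Between IG2 and Multi-Lin-1, 12 of 169 measurable events (7.1%, in 10 genes) were past 0.2, against 3.71% of all events with values in at least 20 cells. Between proNeu-1 and IG2 it was 16 of 167 (9.58%, 14 genes), against 2.95%. Between proNeu-1 and Multi-Lin-1 it was 17 of 128 (13.3%, 14 genes), against 4.42%. The 3 comparisons share cells and are not independent. Most events differed little: 58.6%, 65.3% and 56.2% of the members, in the same order, differed by less than 0.05, against 73.2%, 74.9% and 74.6% of all events. An event with a mean near 0 or 1 has little room to differ. Restricted, after the data were seen, to events with a mean of 0.1 to 0.9, the shares past 0.2 were 19%, 32.7% and 42.1% of the members and 22.9%, 20.4% and 29% of all such events. By junction type, in the same order, 6 of 110 (5.45%), 9 of 107 (8.41%) and 10 of 85 (11.8%) donor-sharing events were past 0.2, and 6 of 59 (10.2%), 7 of 60 (11.7%) and 7 of 43 (16.3%) acceptor-sharing events. The other shares in this paragraph are over both types. Where both label numbers had at least 2 cells per state, the sign was the same in both for 8 of 12, 11 of 12 and 11 of 15 of these events. The events were chosen by their difference over cells of both label numbers, so a common sign is partly built in. Swapped events of the same junctions are counted separately, and no such share is given over all events, so these counts are a description only. With at least 10 cells required in each state, 1 of 60 members remained past 0.2 between IG2 and Multi-Lin-1 (0610010K14Rik), against 1.49% of all events. Between proNeu-1 and IG2 it was 2 of 36, against 0.32%, and these 2 are the same Lamp2 junctions (E11.1 and E10.1) swapped. Between proNeu-1 and Multi-Lin-1 it was 0 of 28, against 0.911%.

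Cells of the states also differed in how much was measured. Genes detected at a TPM of at least 1 had a median of 3940 per IG2 cell, 2950 per Multi-Lin-1 cell, 4127.5 per proNeu-1 cell and 2613 per cell with no state. Of the 233 events, a cell had values for a median of 120, 73, 123 and 60 in the same order. In all 232 events whose gene was found in the expression table, the host's median was higher in cells with a value than in those without, with medians over events of 7.49 and 0.00 in log2(TPM + 1). The part of this coverage in the differences was not tested. Fewer transcripts and fewer reads in a cell cannot be told apart.

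Tnfaip8, an anti-apoptotic regulator on chromosome 18, differed most between IG2 and Multi-Lin-1, through its upstream exons (the junctions share the acceptor). PSI of E1.4 was at 1 in 18 of 20 IG2 cells and 6 of 9 proNeu-1 cells, and the lowest values there were 0.23 and 0.93. In 9 Multi-Lin-1 cells 4 values were at 0, 4 at 1 and 1 between, and in 8 cells without a state 4 were at 0 and 4 at 1. The means were 0.957 ± 0.173 (n = 20), 0.986 ± 0.0242 (n = 9), 0.474 ± 0.506 (n = 9) and 0.50 ± 0.535 (n = 8) for IG2, proNeu-1, Multi-Lin-1 and no state. The difference of IG2 minus Multi-Lin-1 was 0.48, with 0.32 in cells numbered 078 and 0.54 in 079. At least 0.5 was reached in 19 of 20 IG2 cells (interval 75.1 to 99.9%) and 4 of 9 Multi-Lin-1 cells (13.7 to 78.8%). The proNeu-1 minus Multi-Lin-1 difference was 0.51. The states overlapped at 1.

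For 0610010K14Rik, E3.2 was at 0 in 9 of 16 IG2 cells, 3 of 10 Multi-Lin-1 cells and 6 of 8 proNeu-1 cells. Its means were 0.195 ± 0.347, 0.540 ± 0.494 and 0.118 ± 0.257, so Multi-Lin-1 was higher than IG2 by 0.35 and than proNeu-1 by 0.42, and the ranges overlapped. Cmss1 E4.1 was higher in Multi-Lin-1 (0.913 ± 0.195, n = 5) than in IG2 (0.448 ± 0.451, n = 9), by 0.46, or by 0.24 in cells with the host at a TPM of 10 or more. Its swapped event, E2.1, was higher in IG2 by 0.24, with -0.03 in cells numbered 078 and 0.59 in 079. Gnas encodes the stimulatory G protein alpha subunit, whose long and short forms differ by an internal exon, and here its stop codon was in common. Its E10.1 junction averaged 0.667 ± 0.516 (n = 6) over Multi-Lin-1 cells and 0.314 ± 0.458 (n = 11) over IG2 cells, and the E10.3 junction, 3 bases away, 0.167 and 0.149 there but 0.430 ± 0.511 (n = 5) in proNeu-1. AK010878 (0.446 in 9 IG2 cells and 0.0227 in 6 Multi-Lin-1 cells), Eci2 (0.154 in 11 and 0.374 in 5) and Nt5c3 (0.748 in 10 and 0.532 in 5) complete the genes past 0.2 with the same sign in both label numbers. For these 3, 1 label number alone gave a size under 0.2: 0.13 for AK010878 and -0.12 for Eci2 in 078, and 0.04 for Nt5c3 in 079. AK010878 was also at 0.14 with the host at a TPM of 10 or more.

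Between proNeu-1 and IG2, 10 genes were named by that condition, and 9 of them are described. Lower in proNeu-1 were Ppig, a cyclophilin (0.478 in 5 cells and 0.914 in 11 IG2 cells), Thrap3 (0.0919 in 6 and 0.442 in 10), Cox16, an assembly factor of cytochrome oxidase (0.0195 in 7 and 0.355 in 14), Pbdc1, Hp1bp3 (0.173 in 7 and 0.459 in 18) and Hnrnpr (0.148 in 8 and 0.384 in 17). Ppig, Thrap3, Hp1bp3, Hnrnpr and Ncoa4 share the acceptor, and the others share the donor. For Ppig E1.4, proNeu-1 minus IG2 was -0.44, with -0.31 in cells numbered 078 and -0.54 in 079. Its swapped event, E2.2, did not fully mirror this: it was at 0.12, with 0.31 in 078 and 0 in 079. Higher in proNeu-1 were Ncoa4, the ferritin receptor of ferritinophagy (0.80 ± 0.447, n = 5, and 0.441 ± 0.484, n = 9 in IG2), Gnas E10.3 and Lamp2. In these 9 genes the ranges of the states overlapped, and in Ncoa4 a single one of the 5 proNeu-1 cells was at 0. In cells numbered 079 alone the difference was under 0.2 for Hp1bp3 (-0.13), Hnrnpr (-0.12), Gnas E10.3 (0.09) and Lamp2 (0.19). By the share of cells with PSI of at least 0.5, Hnrnpr was at -0.17 and Lamp2 at 0.18. Between proNeu-1 and Multi-Lin-1 the genes were Tnfaip8, 0610010K14Rik, Ncoa4, Pbdc1, Cox16, Gnas, Sfpq (0.210 in 6 and 0 in 6) and Pkig (0.20 in 5 and 0.40 in 5). Of these, Tnfaip8, 0610010K14Rik, Ncoa4 and Pkig share the acceptor. In cells numbered 079 alone Sfpq was at 0.15 and Pkig at -0.17, and Gnas E10.3 was at 0.16 and 0.09 in 078 and 079. Over all cells Gnas E10.3 was at 0.26. Gnas E10.1, against the same background junction, went the other way, at -0.26 over all cells, -0.16 in 078 and -0.25 in 079. Cox16 was at -0.19 with the host at a TPM of 10 or more. In cells with at least 3000 genes Gnas E10.3 was at 0.18 and Pkig at -0.13, and by the share of cells Sfpq was at 0.17. Rgs19 and Znhit1 had 8 of 29 and 8 of 36 values between 0.1 and 0.9, with no state difference past 0.2.

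**Figure D3:**
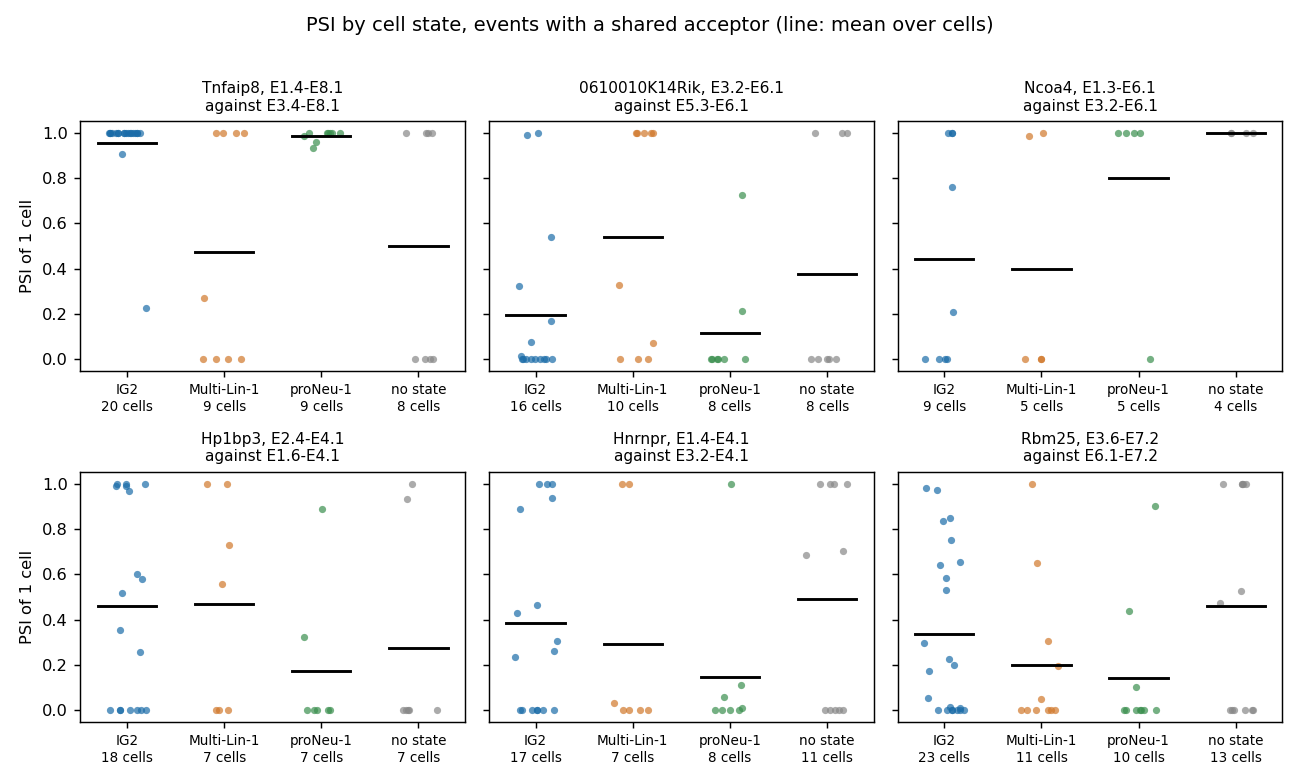
PSI of single cells (points, vertical axis from 0 to 1) by state (horizontal axis, with the number of cells with a value) for 6 acceptor-sharing events, with the mean over cells as a line. Tnfaip8 is near 1 in IG2 and proNeu-1 and splits between 0 and 1 among Multi-Lin-1 cells and those with no state, and the other panels hold points near both ends in IG2.

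**Figure D4:**
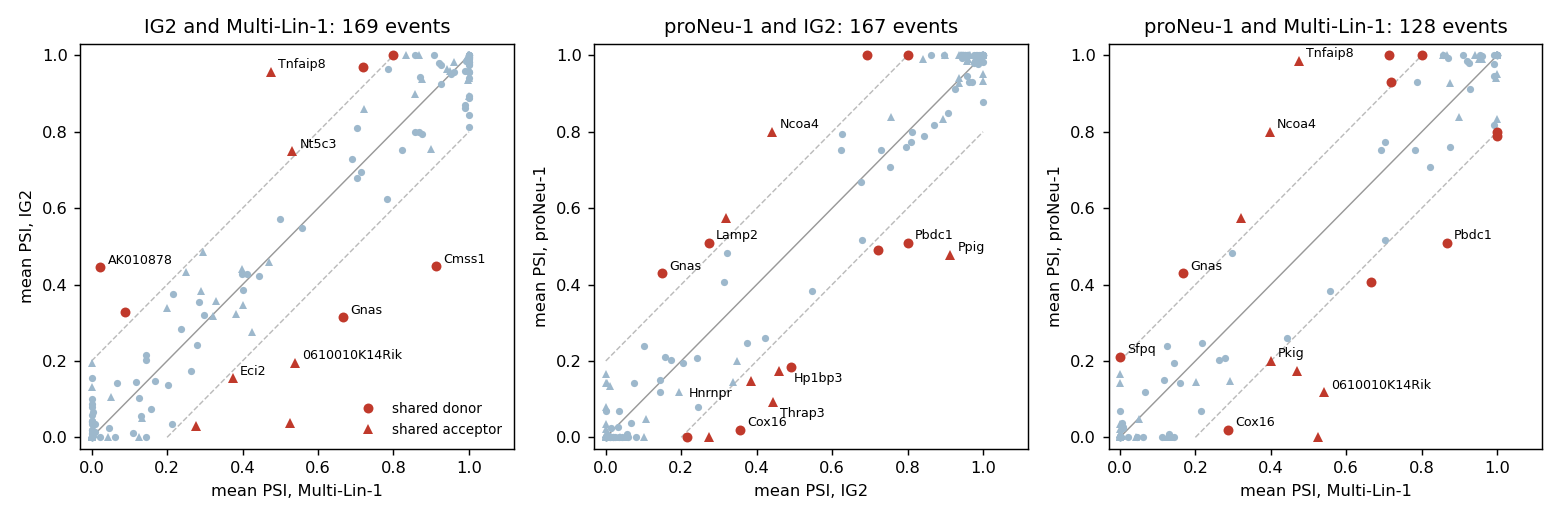
Mean PSI of an event in one state (vertical axis) against another (horizontal axis) for the 169, 167 and 128 measurable events, as circles for a shared donor and triangles for a shared acceptor. Red points lie past a difference of 0.2 (dashed lines), gene names mark named events with the same sign in both label numbers, and most events sit in the corners near 0 and 1.

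Machinery that could set the choice of ending was read from a list of 24 genes, of which 0 were members. The list holds genes of cleavage, polyadenylation and U1 snRNP, and the kinase gene Cdk12. Their level was compared as a difference of mean log2(TPM + 1) of at least 1, over 8044 genes detected in at least 10% of cells. In IG2 against Multi-Lin-1, 10 of 24 were higher, among them Nudt21 (6.40 and 3.96), a subunit of cleavage factor Im, and the U1 protein Snrpa (6.45 and 4.54), while Rbbp6 was lower (3.22 and 4.37). Over all genes 31.1% were higher and 2.54% lower, and the median difference was 0.62 in the list and 0.53 over all genes. In proNeu-1 against IG2, Cstf3 and Pabpn1 were higher and Cstf2 lower, against 13.6% and 10.2% of all genes. In proNeu-1 against Multi-Lin-1, 8 were higher and 3 lower (Cpsf7, Pcf11 and Rbbp6), against 35.2% and 5% of all genes. Multi-Lin-1 cells also had the fewest genes detected of the 3 states (above), and the part of that in these differences was not tested.

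The state labels were set against markers. All 8 GMP markers were detected in over 50% of the 96 cells, but their levels did not all follow the same order. Mpo had a mean log2(TPM + 1) of 13.6 for IG2, 14.5 for proNeu-1 and 8.05 for Multi-Lin-1 cells, and Elane 13.3, 14.9 and 3.58. Of the named states, Fcgr3, Prtn3, Ctsg and Ms4a3 were also highest in proNeu-1 and lowest in Multi-Lin-1. Cd34 was instead lowest in proNeu-1 (3.6), with 7.53 in IG2 and 6.77 in Multi-Lin-1. Kit was nearly level between IG2 (3.43) and Multi-Lin-1 (3.44), and slightly lower in proNeu-1. Of 5 mast cell and basophil markers 4 were detected in over 50% of cells, and they did not move one way: Gata2 (7.23 and 1.99), Cpa3 (6.82 and 4.60) and Ms4a2 (3.37 and 0.65) were higher in Multi-Lin-1 than in IG2, and Hdc (3.42 and 7.01) and Mcpt8 (1.28 and 4.03) were lower. Of 5 erythroid and megakaryocyte markers Car2 alone was detected in over 50% of cells, with 6.32 in Multi-Lin-1 and 2.92 in IG2, and Gata1 was at 3.28 and 0.68. None of 4 monocyte, 4 stem and 4 lymphoid markers reached that share. Multi-Lin-1 cells thus differed from the other states in the mean level of several of these markers. The part of other cell types in the PSI differences was not tested.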

How the data were processed

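RNA of 96 single cells was analysed as the authors deposited it. For splicing, the authors deposited PSI, a fraction from 0 to 1 per event and cell. Expression was deposited by the authors as log2 values of RSEM TPM for 23955 genes, and since 2 to each value minus 1 summed to 1000000 in every cell they were read as log2(TPM + 1). State names come from a deposited annotation of the authors, with no account of how they were assigned. The submitters' processing notes name the builds mm9 and mm10 and the tools STAR, RSEM and Bowtie2, without versions or roles. A further 1142 splicing columns and 511 state entries, which no label maps, were not used, and a deposited column of PSI differences was left out.

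Events were taken as the authors annotated them. Junction ends were matched to GENCODE vM21 (GRCm38) exons, and sequences come from its transcripts. An intermediate value lies between 0.1 and 0.9. State differences are means over cells, with at least 5 cells per state and a size of 0.2, and shares of cells have Clopper-Pearson intervals at the 95% level, which cover counting of cells only. Reads are PCR copies without molecular identifiers, and depth is unknown for both tables. No count model, p-value or doublet caller was used, because the cells are 1 sample and no counts are given, and 0 pairs of cells held identical splicing values. The difference calculation was tested on simulated data with 1 starting value for all cells, a small spread and planted shifts past 0.2. That checks the arithmetic only. It does not show how often a difference of 0.2 arises among few cells with values at 0 or 1. Tools were SciPy 1.17.1, pandas 2.3.3, NumPy 2.4.6, matplotlib 3.10.9 and Python 3.11.15.

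Genes were named by rule: the 10 with values in most cells, up to 10 per pair of states with the largest difference of at least 0.2 and the same sign in both label numbers (at least 2 cells per state in each), the 10 with the highest share of intermediate cells, members of the fixed gene lists, and events at the 20-cell edge. From a list of 20 textbook genes with alternative last exons, Tpm3 and Cdc42 were members. One named gene is not reported here. Polr1d, Ubap2l and the other events of named genes were chosen after their values were seen. The members and lists were chosen with earlier results of these data known.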

Additional observations from a re-analysis of the deposited data

How the results depend on the processing

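The limits are the 1 sample, the unknown number of reads behind each PSI value and the few cells per state. No paired analysis was possible because all cells belong to 1 group and no test was made. A minimum of 10 or 30 cells gave 435 or 125 events in place of 233, and counting genes gave 148. The share of intermediate values, 7.0%, was 8.39% for 0.05 to 0.95, 4.73% for 0.2 to 0.8, 12.7% for values other than 0 and 1, 6.42% in cells numbered 078, 7.63% in 079, 5.26% with 1 event per gene and, an alternative chosen after seeing the data, 7.80% for donor-sharing events. The count past 0.2 for IG2 and Multi-Lin-1 (12 of 169) was 39 (23.1%) at a size of 0.1, 6 (3.55%) at 0.3 and 20 (11.8%) by the share of cells at or above 0.5. It was 1 (of 60) with 10 cells in each state. In cells numbered 078 and 079 alone, with at least 3 cells per state, it was 22 of 150 (14.7%) and 26 of 149 (17.4%), both larger shares than in all cells. It was 7 in cells with at least 3000 genes (7 of 89 events, 7.87%, against 7.1% in all cells) and 6 for donor-sharing events (6 of 110). For proNeu-1 and IG2 (16 of 167) it was 37 (22.2%) at 0.1, 6 (3.59%) at 0.3 and 2 with 10 cells (of 36, a swapped pair of Lamp2). It was 9 with 1 event per gene (9 of 109) and 9 for donor-sharing events (9 of 107). For proNeu-1 and Multi-Lin-1 (17 of 128) it was 40 (31.2%) at 0.1, 5 (3.91%) at 0.3, 0 with 10 cells (of 28) and 26 in 078 alone (26 of 103, 25.2%). It was 10 with at least 3000 genes (10 of 76, 13.2%, against 13.3%), 9 with 1 event per gene (9 of 83) and 10 for donor-sharing events (10 of 85). The share over all events was not computed at these settings, except with 10 cells in each state. Settings that ask for more cells or genes also leave fewer events. The cause of the changes in count and share was not tested. Of 122 values recomputed for the 25 named differences, 103 stayed past 0.2, 19 were smaller and 0 changed sign, where the sign within each label number was part of the rule that chose them. Of the 25 differences, 13 stayed past 0.2 in every alternative that gave a value.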
